A study of Mus musculus with 11 samples.

Results

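Csprs, Acer2, Azgp1, Vmn1r181, Mgarp and Hsd11b1 are 6 of the 16590 genes named on a mouse bead array, and were selected on their measured age difference, a higher level in dorsal root ganglia of old mice than of young mice both after a nerve crush and without it. They are carried by 10 of the 25697 probes, and every probe whose annotated symbol was a member is described. The ganglia are the L4 and L5 pairs, whose sensory neurons send axons into the sciatic nerve. All mice were C57/BL6, old at 24 months and young at 2 months of age, and the injury was a sciatic nerve crush. The groups were old pre-conditioned ganglia (3 arrays, 5 days after crush), old naive ganglia (2 arrays, uninjured, with 1 further column that no label matches not used), young pre-conditioned ganglia (3 arrays, 5 days after crush) and young naive ganglia (3 arrays, uninjured). The design's wording of the days is hard to read and was taken this way. The labels give neither sex nor the number of animals behind an array, so each p-value reflects the spread between arrays alone, some or all of which may be technical.

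The 6 genes belong to different pathways. Acer2 is an alkaline ceramidase of the Golgi that splits ceramide into a fatty acid and sphingosine, the precursor of the signalling lipid sphingosine phosphate. Hsd11b1 turns inert 11-keto glucocorticoids into active corticosterone inside cells, with NADPH made by H6pd. Azgp1 encodes zinc alpha glycoprotein, a secreted protein with the fold of an MHC class I molecule that promotes lipid breakdown in fat cells. Mgarp encodes a glutamic acid-rich mitochondrial protein, induced by hypoxia, that takes part in the transport of mitochondria along axons. Vmn1r181 is one of the type 1 vomeronasal receptors, which detect pheromones in the vomeronasal organ. Csprs lies in a multicopy cluster of mouse chromosome 1 together with sequences related to Sp100, a component of nuclear bodies, so its probe may read several copies.

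Promoter sequences are shown to place the members beside the glucocorticoid and hypoxia responses that Hsd11b1 and Mgarp belong to. Of the 6 members, 5 had an entry in the RefSeq promoter table of GRCm38.p6, which holds 250 bases before and 50 after the annotated start. Capitals mark the hypoxia response core, ACGTG or GCGTG read on either strand, in the first 3 lines, and the glucocorticoid receptor hexamer, AGAACA on either strand, in the last.
Mgarp (chr3:51396498-51396797, minus strand): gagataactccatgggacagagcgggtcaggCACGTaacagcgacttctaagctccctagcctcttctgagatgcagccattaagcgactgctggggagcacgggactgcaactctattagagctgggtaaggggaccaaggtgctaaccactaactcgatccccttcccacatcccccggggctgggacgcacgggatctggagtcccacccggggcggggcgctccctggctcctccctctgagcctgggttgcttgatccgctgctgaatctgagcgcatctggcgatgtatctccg
Acer2 (chr4:86874164-86874463, plus strand): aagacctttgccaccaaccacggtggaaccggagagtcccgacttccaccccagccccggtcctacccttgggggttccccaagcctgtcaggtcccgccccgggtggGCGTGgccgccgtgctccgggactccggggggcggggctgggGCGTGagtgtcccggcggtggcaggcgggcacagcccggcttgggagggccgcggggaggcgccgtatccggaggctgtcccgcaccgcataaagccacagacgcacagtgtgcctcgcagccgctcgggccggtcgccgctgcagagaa
Hsd11b1 (chr1:193242311-193242610, minus strand, a start that lies inside the annotated gene): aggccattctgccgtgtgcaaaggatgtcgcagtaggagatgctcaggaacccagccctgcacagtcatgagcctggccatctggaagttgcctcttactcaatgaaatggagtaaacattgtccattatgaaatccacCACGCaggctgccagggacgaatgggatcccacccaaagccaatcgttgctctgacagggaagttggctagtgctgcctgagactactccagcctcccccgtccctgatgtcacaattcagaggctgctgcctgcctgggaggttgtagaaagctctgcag
Azgp1 (chr5:137981271-137981570, plus strand): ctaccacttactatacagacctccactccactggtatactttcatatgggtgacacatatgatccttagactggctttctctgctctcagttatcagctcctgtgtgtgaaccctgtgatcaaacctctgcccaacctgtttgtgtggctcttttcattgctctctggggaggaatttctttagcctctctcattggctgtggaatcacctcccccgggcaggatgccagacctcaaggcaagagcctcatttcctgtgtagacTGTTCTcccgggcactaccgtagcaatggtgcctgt
The hypoxia core stood at -219 in Mgarp, at -142 and -100 in Acer2 and at -111 in Hsd11b1, counted to the leftmost letter with the start site at 1. It is found in 43.8% of 32851 promoters of this length. The glucocorticoid hexamer was matched in Azgp1, at 15, and is found in 19.0% of promoters. A CCAAT box, found in 37.4%, stood at -58 in Azgp1 and -72 in Hsd11b1. A GC box, GGGCGG, found in 35.7%, stood at -155 and -113 in Acer2 and at -36 in Mgarp. No match to TATAAA, found in 13.6%, lay in these 5 windows, and the Vmn1r181 window matched none of the motifs. The letters describe these windows and say nothing of binding.

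Median raw intensities lay between 171 (old naive 2) and 296 (young pre-conditioned 3). The first principal component, 53.5% of the variance, separated the pre-conditioned arrays from the naive arrays, and old pre-conditioned 1 lay apart on the second (16.4%). Young pre-conditioned 3 had a skeletal muscle marker score of 1.41, while all other arrays lay between -0.22 and 0.10. Results were therefore also taken without these 2 arrays. Of 14 sensory neuron markers 13 passed the filter on low values, as did all 8 Schwann cell and all 9 satellite glia markers. The 14 nerve injury genes tested all rose after crush at both ages, Atf3 by 4.32 in old and 5.05 in young ganglia on the log2 scale.

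Levels are log2 of background-corrected, quantile-normalized intensity, and can be compared between arrays for one probe but not between probes. A probe was tested when it lay above the 40th percentile of its array on at least 2 arrays, which 17086 probes and 9 of the 10 member probes did. Of these 9, 3 had at most 1 young array above that percentile (Csprs, Mgarp and the Azgp1 probe ILMN_2837080). They entered through old arrays, which favours a higher level in old ganglia, and no count of members below supports their age difference. The age differences chose the genes and are given with standard errors as a description, without a test. The tissue was whole ganglia, where more cells of a type and more RNA per cell cannot be told apart.

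**Figure D1:**
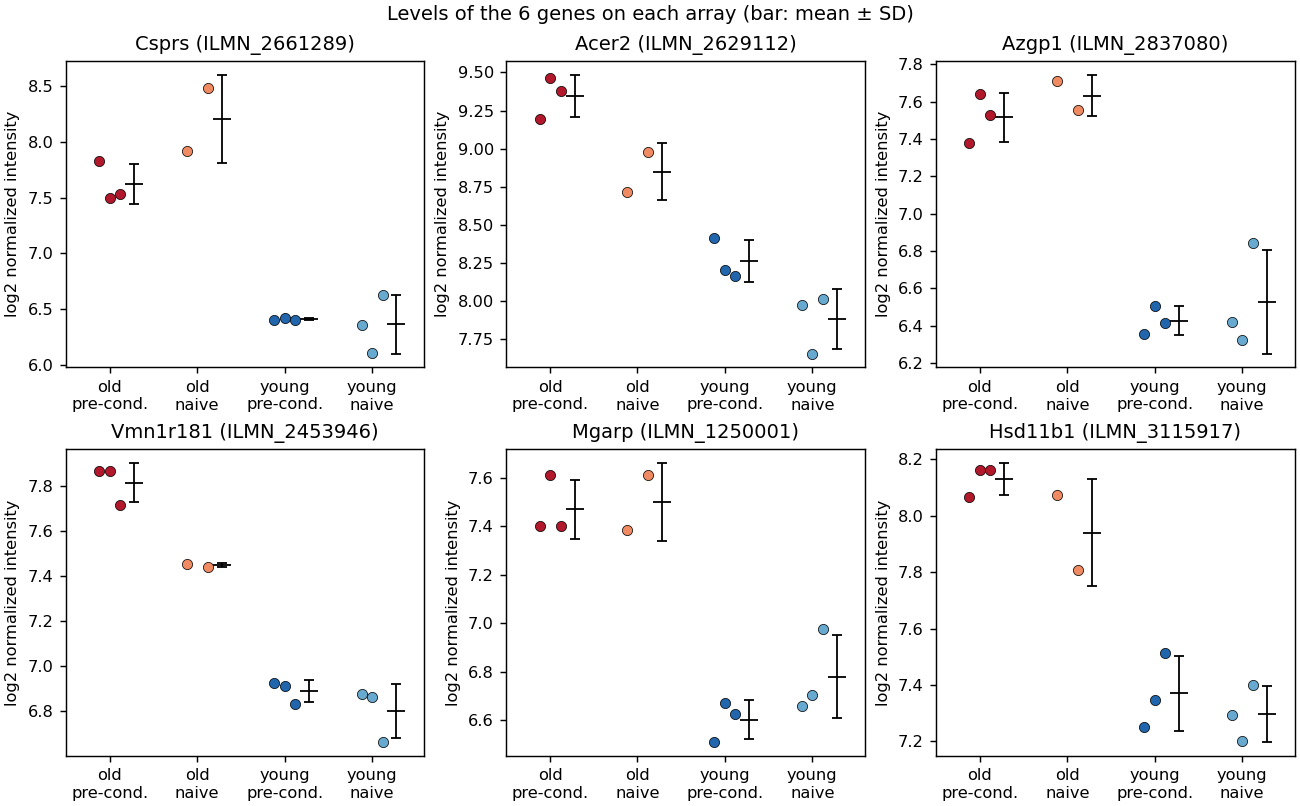
Log2 normalized intensity (y, each panel with its own scale) of 1 probe for each of the 6 genes on the 11 arrays, by group, old left of young, with points for arrays and bars for the group mean ± SD. In every panel all 5 old arrays lie above all 6 young arrays.

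Csprs, the multicopy gene, lay under the filter's percentile on the young arrays. Its probe (ILMN_2661289) read 7.83, 7.50 and 7.54 on the old pre-conditioned arrays, against 6.41, 6.42 and 6.40 on the young pre-conditioned arrays. It read 7.92 and 8.48 on the old naive arrays, against 6.36, 6.11 and 6.63 on the young naive arrays. Every old array stood above every young array. The age difference was 1.21 ± 0.16 (SE) after crush, 2.32-fold, and 1.84 ± 0.18 without it, 3.58-fold. After crush the difference was 0.72 on the authors' processed values and 1.03 without the 2 arrays that stand apart. On 5 of 5 old arrays the probe lay between the 57.4th and 68.7th percentile of its array, and on 6 of 6 young arrays between the 9.42nd and 36.8th.

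Acer2, the ceramidase, lay above the filter's percentile on every array. Its probe (ILMN_2629112) read 9.20, 9.46 and 9.38 on the old pre-conditioned arrays, against 8.42, 8.21 and 8.16 on the young pre-conditioned arrays. It read 8.71 and 8.98 on the old naive arrays, against 7.97, 7.66 and 8.01 on the young naive arrays. The 4 groups stood in the order old pre-conditioned, old naive, young pre-conditioned and young naive, with no overlap between neighbours. The age difference was 1.09 ± 0.13 (SE) after crush, 2.12-fold, and 0.97 ± 0.14 without it, 1.95-fold. On the 11 arrays the probe lay from the 71.0th to the 78.0th percentile in old and from the 59.5th to the 68.0th in young ganglia.

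Azgp1 has 2 probes that disagree. The first (ILMN_2837080) read 7.38, 7.64 and 7.53 on the old pre-conditioned arrays, against 6.35, 6.51 and 6.41 on the young pre-conditioned arrays. It read 7.71 and 7.56 on the old naive arrays, against 6.42, 6.32 and 6.84 on the young naive arrays. On this probe old and young arrays did not overlap, and the age difference was 1.09 ± 0.13 (SE) after crush and 1.11 ± 0.15 without it. The second (ILMN_2725198) read 6.69, 6.52 and 6.75 on the old pre-conditioned arrays, against 6.67, 6.73 and 6.52 on the young pre-conditioned arrays. It read 6.92 and 6.62 on the old naive arrays, against 6.84, 6.69 and 6.61 on the young naive arrays. The groups overlapped throughout, with age differences of 0.01 ± 0.12 and 0.06 ± 0.13. The second probe exceeded the 40th percentile on 2 of 5 old and 2 of 6 young arrays, the first on 5 of 5 old and 1 of 6 young arrays. Probe sequences were not used here, and whether the probes read different transcripts was not tested.

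Vmn1r181 belongs to a large family of similar receptors, and whether its probe also reads other members of that family was not tested. The probe (ILMN_2453946) read 7.87, 7.87 and 7.72 on the old pre-conditioned arrays, against 6.93, 6.91 and 6.83 on the young pre-conditioned arrays. It read 7.45 and 7.44 on the old naive arrays, against 6.88, 6.86 and 6.66 on the young naive arrays. Old and young arrays did not overlap, and the old pre-conditioned arrays were the highest. The age difference was 0.93 ± 0.096 (SE) after crush, 1.90-fold, and 0.65 ± 0.11 without it, 1.57-fold. The young arrays lay between the 38.0th and 46.2nd percentile, beside the filter's limit, and the old arrays between the 56.6th and 62.1st.

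Mgarp, the mitochondrial transport protein, read higher on old arrays in both states. Its probe (ILMN_1250001) read 7.40, 7.61 and 7.40 on the old pre-conditioned arrays, against 6.51, 6.67 and 6.63 on the young pre-conditioned arrays. It read 7.39 and 7.61 on the old naive arrays, against 6.66, 6.71 and 6.98 on the young naive arrays. No young array reached an old one. The age difference was 0.87 ± 0.12 (SE) after crush and 0.72 ± 0.13 without it, 1.65-fold. Young naive 3 was the highest young array for Mgarp, for the first Azgp1 probe and for Csprs.

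Hsd11b1, the glucocorticoid-activating enzyme, has 4 probes, of which 3 passed the filter. The brightest (ILMN_3115917) read 8.07, 8.16 and 8.16 on the old pre-conditioned arrays, against 7.25, 7.35 and 7.51 on the young pre-conditioned arrays. It read 8.07 and 7.81 on the old naive arrays, against 7.29, 7.20 and 7.40 on the young naive arrays. Old and young arrays did not overlap, with an age difference of 0.76 ± 0.11 (SE) after crush and 0.64 ± 0.12 without it. A second probe (ILMN_1214998) read 7.95, 7.78 and 7.88 on the old pre-conditioned arrays, against 7.20, 7.02 and 7.36 on the young pre-conditioned arrays. It read 7.80 and 7.89 on the old naive arrays, against 6.94, 7.17 and 6.93 on the young naive arrays, again with no overlap. Its age difference was 0.68 ± 0.11 after crush and 0.83 ± 0.13 without it. The third (ILMN_2774160) differed by 0.63 ± 0.18 after crush and 0.48 ± 0.20 without it, and its old and young arrays overlapped, with old naive 2 at 7.22 and young pre-conditioned 2 at 7.58. Its naive difference was 0.11 without old naive 1 and 0.86 without old naive 2. The last (ILMN_3041149) lay between 6.24 and 6.55 on all 11 arrays, under the filter on each, with differences of -0.01 after crush and 0.02 without it.

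**Figure D2:**
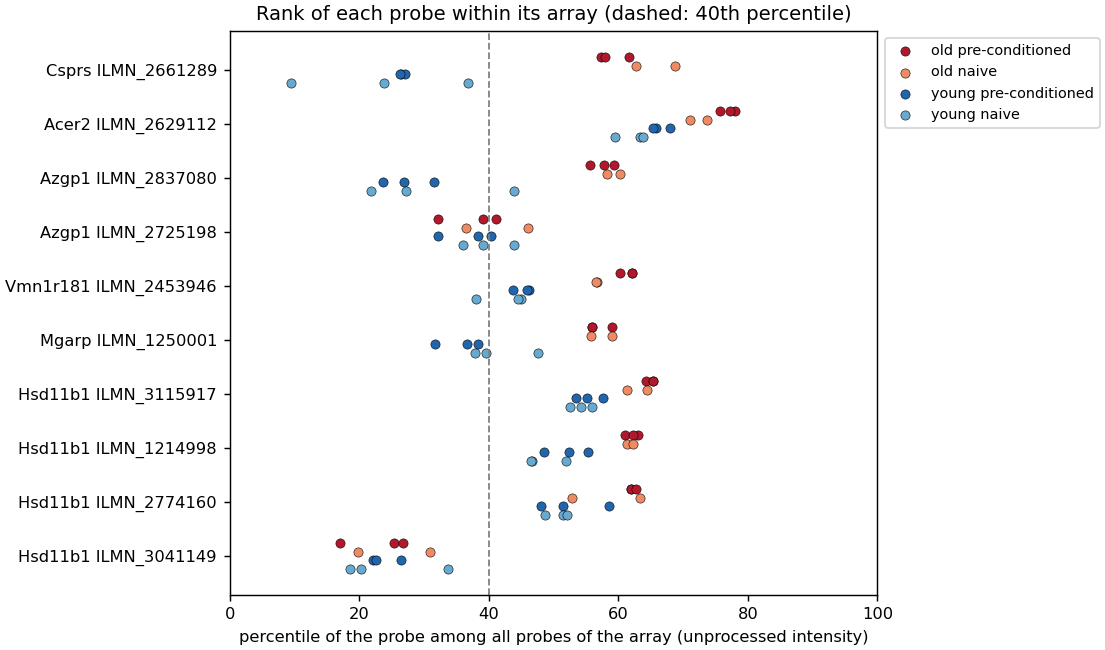
Percentile of each member probe among all probes of its array (0 to 100) on the 11 arrays, old beside young, with a line at the 40th percentile used as the filter. Csprs lies between the 57.4th and 68.7th percentile on old arrays and between the 9.42nd and 36.8th on young arrays, while the second Azgp1 probe straddles the line at both ages.

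Side by side, the brightest probe of each gene differed with age by a median of 1.01 after crush (0.76 to 1.21) and 0.84 without it (0.64 to 1.84), where the medians over all probes tested were 0.00 and 0.01. Without background correction these medians were 0.64 and 0.57, and on the authors' processed values 0.62 and 0.55, so the size of the difference rests on how background is handled. Leaving out old pre-conditioned 1 and young pre-conditioned 3 together gave 0.94 and 0.80. Every old array exceeded every young array for 7 of the 10 member probes, where 50 probes, 0.293% of those tested, did so over the whole array. An adjusted p under 0.05 with higher signal in old ganglia was met by 7 of 9 member probes after crush, beside 0.0936% of all probes tested, and by 5 of 9 without crush, beside 0.0585%. These shares follow from how the members were picked. Over all probes 29 (0.17%) were called in either direction after crush and 18 (0.105%) without it, and leaving out old naive 2 brought the 18 to 0 in limma, with 1407 at an unadjusted p under 0.05.

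In naive ganglia Vmn1r181 stood just inside that threshold at 0.65 ± 0.11 (SE). Mgarp at 0.72 ± 0.13 and the brightest Hsd11b1 probe at 0.64 ± 0.12 did not pass it. Another Hsd11b1 probe, ILMN_1214998, was past the threshold at 0.83 ± 0.13. These positions, and the members' calls and ranks that follow, come from the differences that chose the genes and are no test of them. Of all probes tested 8, 0.0468%, were called higher in both states, and by their brightest probes 6 genes were. They were Csprs, Acer2, Azgp1 and Vmn1r181, together with Ccl8, a chemokine that attracts monocytes (1.73 after crush and 1.76 without it), and the protocadherin Pcdhb3 (0.64 and 0.85). Ranked by the mean of both age differences among 11529 genes, Csprs was number 2, Azgp1 3, Acer2 6, Mgarp 7, Vmn1r181 8 and Hsd11b1 13.

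**Figure D3:**
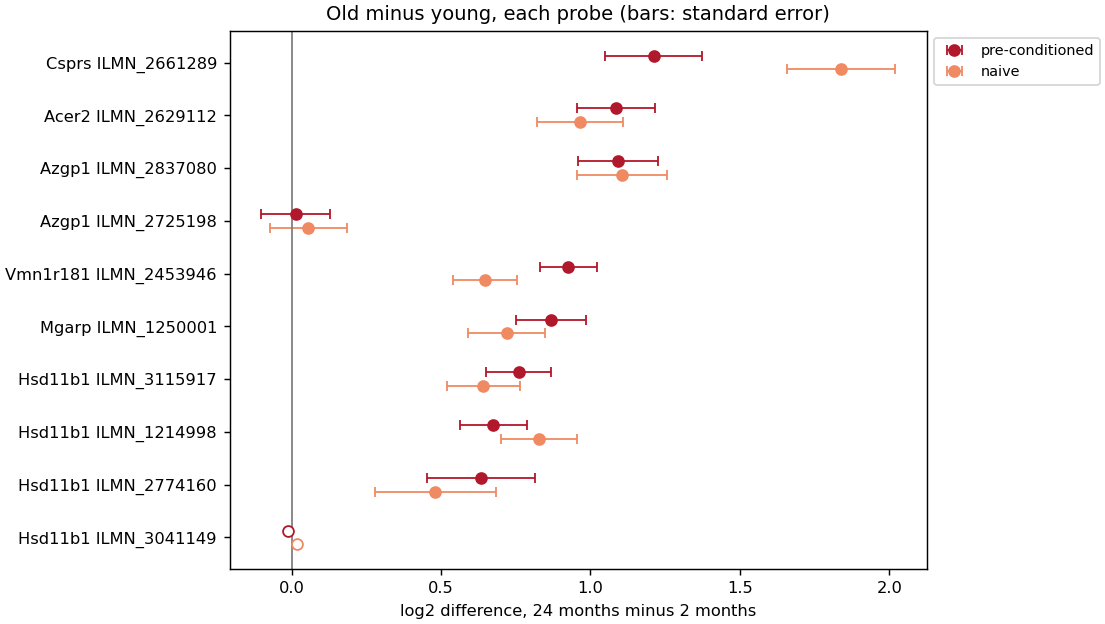
Old minus young log2 difference of each member probe (x), after crush and without it, with bars for the standard error. Of the filled points, those of the second Azgp1 probe (0.01 and 0.06) lie at 0 within their error, and the open circles are the Hsd11b1 probe under the filter, drawn without error.

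How the members responded to the crush was not used to choose them and was tested with limma, adjusted over all 17086 probes. The same arrays gave the age differences that chose the genes, so these tests are not fully independent of that choice. In old ganglia 2 of 9 member probes rose and 1 fell, beside 6.95% and 7.37% of all probes tested. In young ganglia 0 of 9 passed the threshold in limma (1 had an unadjusted p under 0.05), beside 15.4% of all probes in either direction. Of the 6 young arrays, Csprs exceeded the 40th percentile on 0, Mgarp and the first Azgp1 probe on 1 and the second on 2. At such low signal a fall could hardly be seen, so the young count says little of a fall in these probes.

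Acer2 rose after crush in old ganglia, to a mean of 9.35 ± 0.14 (SD, n = 3) in pre-conditioned against 8.85 ± 0.19 (n = 2) in naive ganglia, a difference of 0.50 ± 0.14 (SE, limma adjusted p = 0.03692). In young ganglia its means were 8.26 ± 0.14 in pre-conditioned and 7.88 ± 0.20 in naive ganglia (SD, n = 3 each), a difference of 0.38 ± 0.13 that missed the threshold (limma adjusted p = 0.06938) although the arrays did not overlap, as for 16.6% of all probes tested in that direction. The old call was lost without old naive 1 (0.37, adjusted p = 0.2749) and without old naive 2 (0.63, adjusted p = 0.05171) in limma, and in 8 of 22 alternatives in all. The young difference passed in 5 of 22. Vmn1r181 rose in old ganglia, to 7.82 ± 0.087 (SD, n = 3) in pre-conditioned against 7.45 ± 0.0092 (n = 2) in naive ganglia, a difference of 0.37 ± 0.11 (limma adjusted p = 0.03794). The call was lost in 14 of 22 alternatives, among them the fit without the 2 arrays that stand apart (0.32, limma adjusted p = 0.0623). In young ganglia Vmn1r181 differed by 0.09 ± 0.096 (limma adjusted p = 0.6159).

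Csprs fell after crush in old ganglia, to 7.62 ± 0.18 (SD, n = 3) in pre-conditioned against 8.20 ± 0.40 (n = 2) in naive ganglia, a difference of -0.58 ± 0.18 (SE, limma adjusted p = 0.04965). The call was lost in 12 of 22 alternatives, and without old naive 2, the array with the highest Csprs level, the difference was -0.30 (limma adjusted p = 0.3893). In young ganglia Csprs differed by 0.04 ± 0.16 (limma adjusted p = 0.904), on arrays where its probe lay under the filter's percentile. Azgp1, Mgarp and Hsd11b1 missed the threshold at both ages. Azgp1's first probe differed by -0.12 ± 0.15 in old and -0.10 ± 0.13 in young ganglia, Mgarp by -0.03 ± 0.13 and -0.18 ± 0.12, and the brightest Hsd11b1 probe by 0.19 ± 0.12 and 0.07 ± 0.11. The age difference after crush minus that without crush was -0.63 ± 0.24 for Csprs, 0.28 ± 0.14 for Vmn1r181 and between -0.15 and 0.15 for the other probes. It is built from the values that chose the genes and was not tested.

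**Figure D4:**
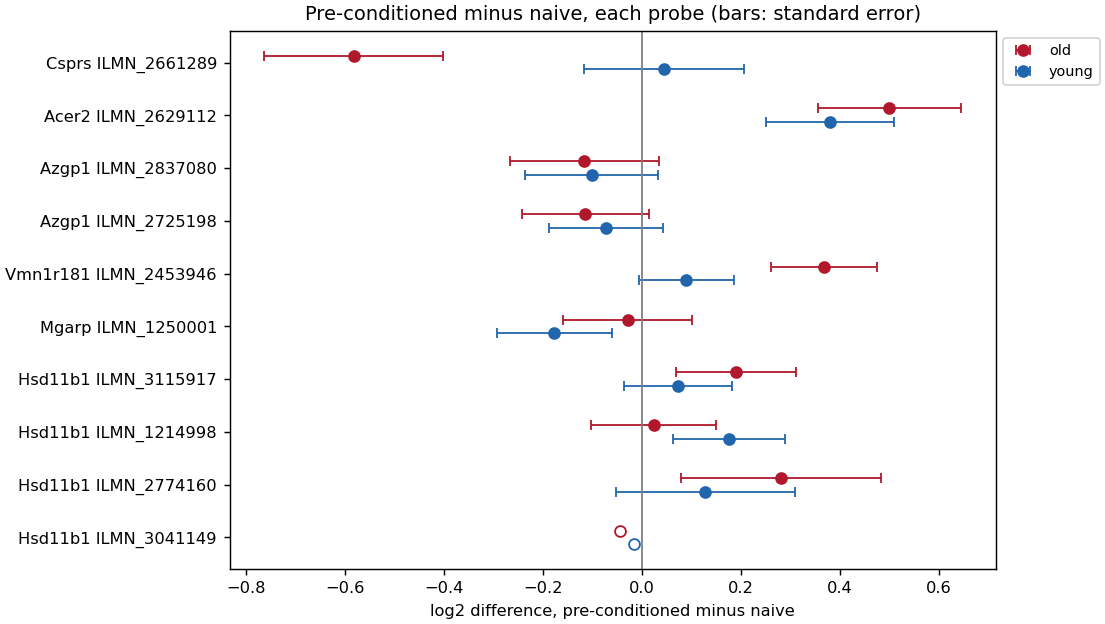
Pre-conditioned minus naive log2 difference of each member probe (x), in old and young ganglia, with bars for the standard error. Acer2 (0.50) and Vmn1r181 (0.37) lie above 0 and Csprs (-0.58) below it in old ganglia, and the open circles are the Hsd11b1 probe under the filter, drawn without error.

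Close relatives and partners of the members are given with their age differences. None of their tested probes was called by limma, where 0.17% of all probes were after crush and 0.105% without it, so that few calls could fall among them. For Acer2, the other alkaline ceramidases gave age differences of 0.25 after crush and -0.09 without it (Acer1) and of 0.00 and 0.04 on the brighter probe of Acer3. The neutral ceramidase Asah2 differed by 0.10 and 0.09 with age, and fell after crush by 0.72 in old (limma adjusted p = 0.002449) and by 0.74 in young ganglia (limma adjusted p = 0.0007756) on the log2 scale. For Hsd11b1, its NADPH source H6pd differed with age by 0.22 after crush and 0.24 without it, and the glucocorticoid receptor Nr3c1 by -0.21 and -0.31. The opposing enzyme Hsd11b2 lay under the filter. For Csprs, Sp100 lay under the filter, Sp110 differed by -0.36 and -0.14, and Sp140 by -0.04 and 0.07. The other Vmn1r genes had 139 probes for 123 genes, of which 11 probes passed the filter and 0 were called by limma in either age comparison or after crush (1 had an unadjusted p under 0.05 in each age comparison, 2 after crush in young and 0 in old ganglia). Over all 139 probes, most of them under the filter, the age differences ran from -0.33 to 0.35 after crush and from -0.37 to 0.42 without it.

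In the 7 pathway lists around the members, members left out, 0 of 285 genes were called with age in either state by limma (15 had an unadjusted p under 0.05 after crush and 20 without it), beside 0.121% of genes called higher and 0.0867% lower after crush, and 0.0694% and 0.052% without it. The 33 ceramide and sphingosine genes had a median age difference of 0.05 after crush and 0.00 without it, and the 20 glucocorticoid genes 0.04 and 0.00. In the last list Lcn2, an iron-binding defence protein also made by neutrophils, differed by 1.57 ± 0.29 after crush (SE, limma adjusted p = 0.07787). That list had 1 gene called with age after crush in 3 of 15 alternatives, among them leaving out young pre-conditioned 3. The 20 MHC class I genes had medians of 0.14 and 0.01, the 7 genes around Sp100 -0.04 and 0.07, the 24 mitochondrial transport genes 0.02 and 0.02, the 22 hypoxia genes 0.07 and -0.08, and the 159 vomeronasal and olfactory receptors 0.00 and 0.01. The medians over all genes were 0.01 in both states.

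After crush these lists moved in part, beside 7.64% of genes called higher and 7.76% lower in old and 8.14% and 8.72% in young ganglia. Of the 20 glucocorticoid genes 4 rose and 1 fell at each age, among them the cell cycle inhibitor Cdkn1a (1.66 ± 0.12 in old, 1.72 ± 0.11 in young) and the phosphatase Dusp1 (0.98 ± 0.13 and 1.10 ± 0.11). Of the 33 ceramide genes 1 rose and 3 fell in old and 0 rose and 4 fell in young ganglia, Cers1, a ceramide synthase, by 0.59 and 0.64 on the log2 scale. Leaving out 1 array gave 1 call (without old naive 2) to 7 (without old pre-conditioned 1) of these genes in old, and 2 (without young naive 3) to 6 (without old pre-conditioned 1) in young ganglia. Of the 20 MHC class I genes 4 rose in old ganglia, and 3 rose and 2 fell in young ganglia, with the lipid-presenting protein Cd1d1 higher by 0.65 ± 0.12 and 0.89 ± 0.11. Slc2a1, the glucose transporter of the hypoxia list, rose by 1.07 ± 0.15 and 1.00 ± 0.14. Of the 22 hypoxia genes 1 rose and 0 fell in old, and 2 rose and 1 fell in young ganglia. In the mitochondrial transport list 1 gene rose and 2 fell at each age, but leaving out 1 array gave 0 calls (without old naive 1) to 5 (without old pre-conditioned 1) in old, and 0 (without young naive 1) to 6 (without old pre-conditioned 1) in young ganglia. Of the vomeronasal and olfactory receptors 1 fell in old and 2 in young ganglia, with 0 higher, and in the list around Sp100 0 genes were called by limma or had an unadjusted p under 0.05. Leaving out 1 array gave 0 to 2 receptor calls in old (0 without young naive 2) and 0 to 6 in young ganglia (0 without young naive 1, 6 without old pre-conditioned 1), and 1 to 4 hypoxia calls in young ganglia (1 without young naive 2, 4 without old pre-conditioned 1). Without old pre-conditioned 1 there were 2 hypoxia calls and 1 call around Sp100 in old ganglia. The glucocorticoid calls numbered 3 in old ganglia without old naive 2 and 3 in young ganglia without young naive 2.

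**Figure D5:**
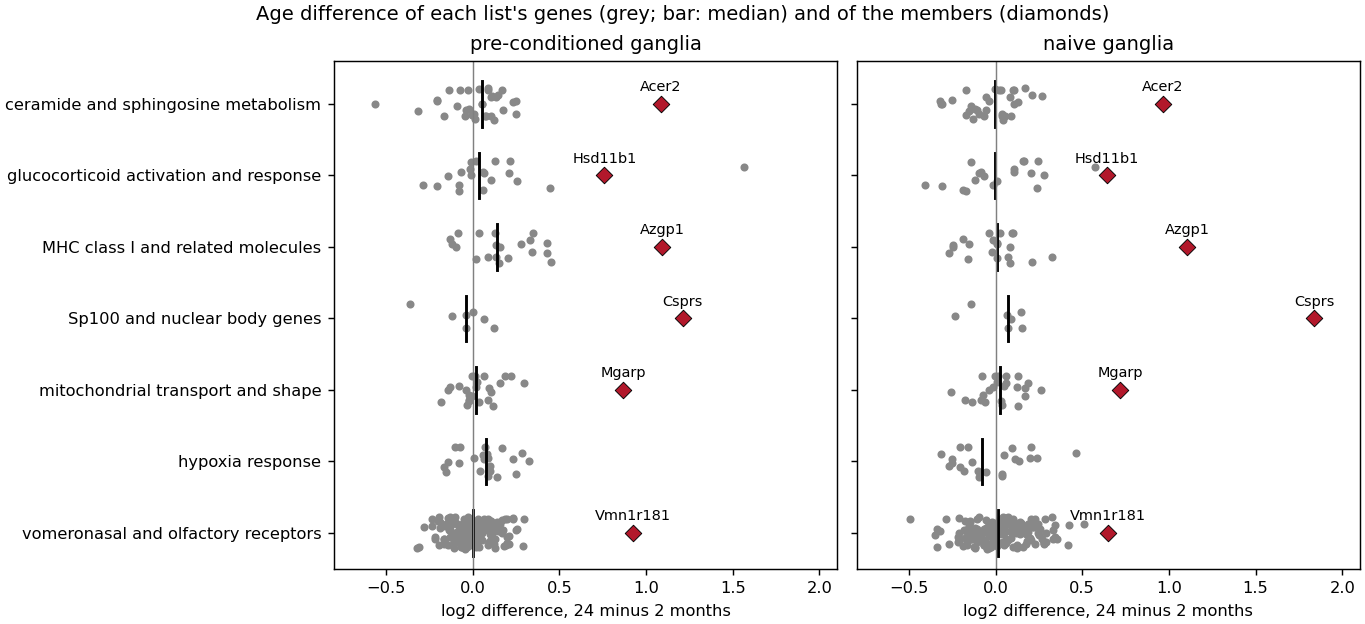
Old minus young log2 difference of the genes in the 7 pathway lists around the members, with the members drawn apart, after crush on the left and without it on the right. The list medians lie between -0.08 and 0.14 and single list genes between -0.56 and 1.57. The members stand apart because they were picked for this difference.

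The genes beside the members on their chromosomes were also looked at, 5 tested genes on each side of Acer2, Azgp1, Vmn1r181, Mgarp and Hsd11b1. Of these 50 genes 0 were called with age in either state by limma (1 had an unadjusted p under 0.05 after crush and 0 without it), beside 0.121% of genes called higher and 0.0867% lower after crush, and 0.0694% and 0.052% without it. At those shares 0 of 50 says nothing particular of them. Their differences ran from -0.28 to 0.27 with medians of -0.03 after crush and 0.02 without it. Csprs was left out, since its locus lies on an unlocalized scaffold of chromosome 1. The members lie on chromosomes 1 (Csprs and Hsd11b1), 3 (Mgarp), 4 (Acer2), 5 (Azgp1) and 7 (Vmn1r181).

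Across the 11 arrays the 15 pairs of members had Pearson correlations of 0.81 to 0.97, values that include the age difference used to pick the genes. Within the 6 young arrays the same pairs ran from -0.92 (Vmn1r181 and Mgarp) to 0.88 (Azgp1 and Mgarp), with a median of 0.29. The gene most like Csprs over all arrays was Azgp1 (r = 0.93). Acer2 was most like Pcdhb3 (0.96) and the secreted matrix protein Srpx2 (0.95). Azgp1 was most like Mgarp (0.97) and Tuft1 (0.95), and Mgarp, after Azgp1, most like Uap1l1 (0.96). Vmn1r181 was most like the lectin Cd209b (0.94), and Hsd11b1, after Azgp1 and Vmn1r181, most like the chloride channel gene Clic6 (0.93). All these values share the same arrays, and are given as a description.

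Marker genes of other cell types were read beside the members. Fibroblast and matrix markers had a median age difference of -0.39 after crush and -0.30 without it. Of 10 tested 0 were called by limma, with 5 at an unadjusted p under 0.05 in each state, and Dpt and Postn lay under the filter. Their mean level relative to young naive ganglia was -0.23 to 0.08 in old pre-conditioned against 0.39 to 0.54 in young pre-conditioned, and -0.43 to -0.35 in old naive against -0.14 to 0.09 in young naive ganglia, with no overlap between ages in either state. Of 12 adipocyte markers 7 passed the filter, with Fabp4, Plin1, Lep, Retn and Cidec below it, and their medians with age were -0.04 after crush and 0.07 without it. The adipocyte score was 0.50 to 0.75 in old pre-conditioned against 0.71 to 0.82 in young pre-conditioned ganglia. It was 0.113 to 0.160 in old naive against -0.090 to 0.109 in young naive ganglia, narrowly without overlap. Of these markers Car3 rose most after crush, by 3.07 in old and 3.86 in young ganglia, and weighed on the score. The median changes of the adipocyte list after crush were 0.11 and 0.28. Neutrophil markers had a median age difference of 0.84 after crush, with 0 of 10 called by limma and 9 at an unadjusted p under 0.05, and 0.13 without it. Their score after crush was 1.61 to 2.05 in old against 0.67 to 1.49 in young ganglia. Satellite glia markers also had scores that did not overlap between ages, at 0.0043 to 0.071 in old pre-conditioned against 0.23 to 0.32 in young pre-conditioned, and -0.16 to -0.15 in old naive against -0.12 to 0.076 in young naive ganglia. Their median age difference was -0.11 after crush but 0.03 without it, where Ptgds alone differed by -1.49 ± 0.42 (SE) and weighed on the mean score. Ptgds also weighed on the score after crush, with mean levels of 10.19 in old and 11.39 in young ganglia, a difference of -1.20. In naive ganglia alone scores also did not overlap between ages for Schwann cell markers (-0.20 to -0.15 in old against -0.033 to 0.028 in young), for pericyte and smooth muscle markers (-0.21 to -0.12 against -0.014 to 0.0072) and for macrophage markers (0.043 to 0.11 against -0.030 to 0.031). Nerve injury genes did likewise (0.11 to 0.38 against -0.0095 to 0.015). T and NK cell markers did so after crush alone, narrowly (0.142 to 0.275 in old against -0.080 to 0.140 in young). Scores of groups of 2 or 3 arrays can separate without any age effect, and many lists were read. Lack of overlap is therefore a description and no test. Sensory neuron markers had median age differences of 0.01 after crush and -0.03 without it. Of 14 nerve injury genes 2, Atf3 (0.83 ± 0.13) and Npy (1.23 ± 0.20), were called higher in old than in young naive ganglia (SE, limma adjusted p = 0.04982 for each), beside 0.0694% of all genes. No probe was called in that comparison without old naive 2, and 2 were without old naive 1. The part of any of these in the members' levels was not tested.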

How the data were processed

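RNA was extracted with Trizol and labelled with biotin for 1-colour Illumina bead arrays, per the labels' protocols. The values used are the non-normalized probe intensity values deposited by the authors, 25697 probes on a linear scale, none under 107. What the scanner software did before is not given in the sources used here. The authors also deposited processed intensity values, used as an alternative. The submitters' processing notes name RMA without a version. Of the unprocessed columns 1, headed OldNV#3, matched no labelled sample and was not used, which leaves the old naive group with 2 arrays.

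Background was corrected by normexp (offset 50), arrays were quantile-normalized and log2 was taken (limma 3.58.1, R 4.3.3). All probes above the 40th percentile on at least 2 arrays were fitted with the 4 groups as cell means (7 residual degrees of freedom) with two-sided tests and Benjamini-Hochberg adjustment over all probes. The fit was tested on simulated data. The number of arrays limits the precision. Of the probes 23978 had 1 symbol, 0 several and 1719 none. Symbols were updated through RefSeq GRCm38.p6 (23962 by Entrez identifier, 9 by accession), which changed 8. The brightest probe stood for a gene in lists. No 2 arrays were identical. Named genes were the members, their relatives, the 3 genes most like each member, and up to 4 genes of a list past the threshold, or the 1 with the smallest p. The members and lists were chosen with earlier results of these data known.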

Additional observations from a re-analysis of the deposited data

How the results depend on the processing

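Counts of probes called were recomputed under 23 alternatives, 11 of which left out 1 array, the members' values under 21 or 22 of these, and the pathway lists under 15 (those leaving out 1 array, cyclic loess, median scaling, 1 probe per gene and the pair of arrays left out). One alternative, leaving out old pre-conditioned 1 and young pre-conditioned 3 together, was chosen after seeing the data. Of 390 age differences of member probes 37 moved by more than the spread between arrays and 5 changed sign, all of the Azgp1 probe ILMN_2725198. The members' median age difference after crush was 0.64 without background correction and 0.62 on the authors' processed values, and 0.57 and 0.55 in naive ganglia. Leaving out 1 array kept it between 0.95 and 1.03 after crush and between 0.77 and 0.94 in naive ganglia. Of 390 injury values 34 lost and 5 gained a call. A further 16 changed sign, 0 of them with a call in either fit. Of 420 counts of genes called in the pathway lists 66 moved by over 1.5 times or away from 0. None of the 10 member probes passed the stricter filter (above the 60th percentile on all arrays), which therefore gave no value for them.

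The number of probes called with age after crush, 29, was 16 with median scaling, 3 under the stricter filter, 65 with array weights, 13 with only the groups compared, 49 without the pair of arrays that stand apart, and 8 to 52 leaving out 1 array. In naive ganglia the 18 became 11 with cyclic loess, 2 with median scaling, 1 under the stricter filter, 8 with the replicate block, 6 with only the groups compared, 31 without that pair, and 0 to 24 leaving out 1 array. For injury in old ganglia the 2447 became 1308 with median scaling, 970 with only the groups compared and 1143 to 3119 leaving out 1 array. For injury in young ganglia the 2632 became 1604 with median scaling and 1737 to 3583 leaving out 1 array. Median scaling moved the share of higher calls after injury to 71.0% in old and 65.2% in young ganglia, against 48.5% and 48.3%. The causes were not tested, apart from the fewer probes or arrays some alternatives hold.

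The deviations of same-numbered arrays correlated at -0.34 to 0.25 over 15 pairs, with 6 above 0.1. The highest values, 0.25 and 0.23, were between old pre-conditioned and old naive arrays. These values do not settle whether replicate numbers pair the arrays. With the replicate block the injury calls in old ganglia of Csprs (-0.61, limma adjusted p = 0.07391) and Acer2 (0.49, limma adjusted p = 0.07797) were not made. On most young arrays Csprs, Mgarp and both Azgp1 probes lay under the 40th percentile, so signal over background limits how well their differences can be sized.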
